A study of Mus musculus with 12 samples.

Results

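The 10 genes described here carry peptide supply and peptide loading for class I antigen presentation: the immunoproteasome subunits Psmb8, Psmb9 and Psmb10, the proteasome activator subunits Psme1 and Psme2, the peptide transporter subunits Tap1 and Tap2, tapasin (Tapbp), beta-2 microglobulin (B2m) and the class I transactivator Nlrc5. They were chosen by symbol, and all 10 were found among the 22180 genes that carry 1 symbol on the array. They were measured in skin-derived precursors (SKPs), dermal cells that were expanded as floating spheres, from mice 9 months old of a strain labelled CD57/Bl6. Each of 4 groups held 3 arrays: SKPs of uninjured skin given vehicle, and SKPs of wounded skin given vehicle, trimebutine maleate (a gut motility drug) or alprostadil (prostaglandin E1). All groups grew at 50000 cells per ml in medium that held EGF (20 ng/ml), FGF2 (40 ng/ml) and 2% B27, and RNA came from secondary spheres. The RNA was therefore that of cultured progeny of the skin cells, not of the wound. The sources used here do not give drug doses, treatment times or the skin site.

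Class I molecules show short peptides from inside the cell to CD8 T cells. Proteasomes cut proteins into peptides, the Tap1-Tap2 transporter pumps them into the endoplasmic reticulum, and tapasin holds the class I heavy chain beside the transporter until a peptide binds. Interferon is known to raise this machinery in most cell types, including fibroblasts, and to replace the 3 constitutive catalytic proteasome subunits by Psmb8, Psmb9 and Psmb10.

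Values are log2 expression levels per probe set, so a difference of 1 is a doubling. Levels of different genes are not compared, because probe sets differ in brightness. All 10 genes lay above the array median, 6.57 to 6.74, on all 12 arrays, and all 10 were among the 13153 genes tested. Fibroblast genes were bright on every array, with Fn1 at 13.81 to 13.94 and Pdgfra at 11.19 to 12.67. The neural precursor marker Nes lay at 6.60 to 7.12, and Sox2, often used to define SKPs, did not exceed 5.61. The T cell gene Cd3e did not exceed 6.14. The array of alprostadil replicate 1 stood apart in macrophage genes: Adgre1 was at 11.12 there and at 5.10 to 7.12 elsewhere, and Ptprc, the pan-leukocyte gene, was at 10.44 there and at most 5.67 elsewhere. Of 20 macrophage markers, 12 exceeded the median of at least 3 arrays. Marker lists of other cells were taken as means of centred log2 values (each gene minus its mean over 12 arrays). They ran from -0.04 to 0.13 for T and NK cells, -0.26 to 0.35 for endothelium, -0.10 to 0.18 for keratinocytes and -0.17 to 0.15 for Schwann cells and melanocytes. Endothelial markers lay at -0.26 to -0.10 in uninjured vehicle and at -0.07 to 0.26 in wound vehicle. Centred values show variation between arrays and not whether a cell type was present. The groups were compared with limma fitted to all 12 arrays, with Benjamini-Hochberg adjustment over the 13153 genes. In bulk RNA, fewer cells of a type and less RNA per cell cannot be told apart. Replicates are labelled biological and described as isolates, and the spread between them is what the p-values rest on.

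In SKPs from wounded skin with vehicle, 7 of the 10 genes lay lower than in SKPs from uninjured skin, by 1.26-fold for Psme1 to 1.78-fold for Psmb9, with no overlap between the arrays of the groups. These were all 3 immunoproteasome subunits, Psme1, both transporter subunits and tapasin. The other 3, Psme2, B2m and Nlrc5, differed by -0.01, -0.01 and -0.02 log2 units. None of the 10 passed an adjusted p of 0.05 in limma, which 6 of all genes tested did (0.0456%). At an unadjusted p under 0.05, 7 of 10 were lower, against 1084 of all genes (8.24%). Groups lay apart, with wound vehicle lower, for 7 of 10 genes and for 10% of all genes. All 10 differences were below 0, against 48.6% of all genes. The members' median difference was -0.50 and that of all genes 0.01.

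**Figure D1:**
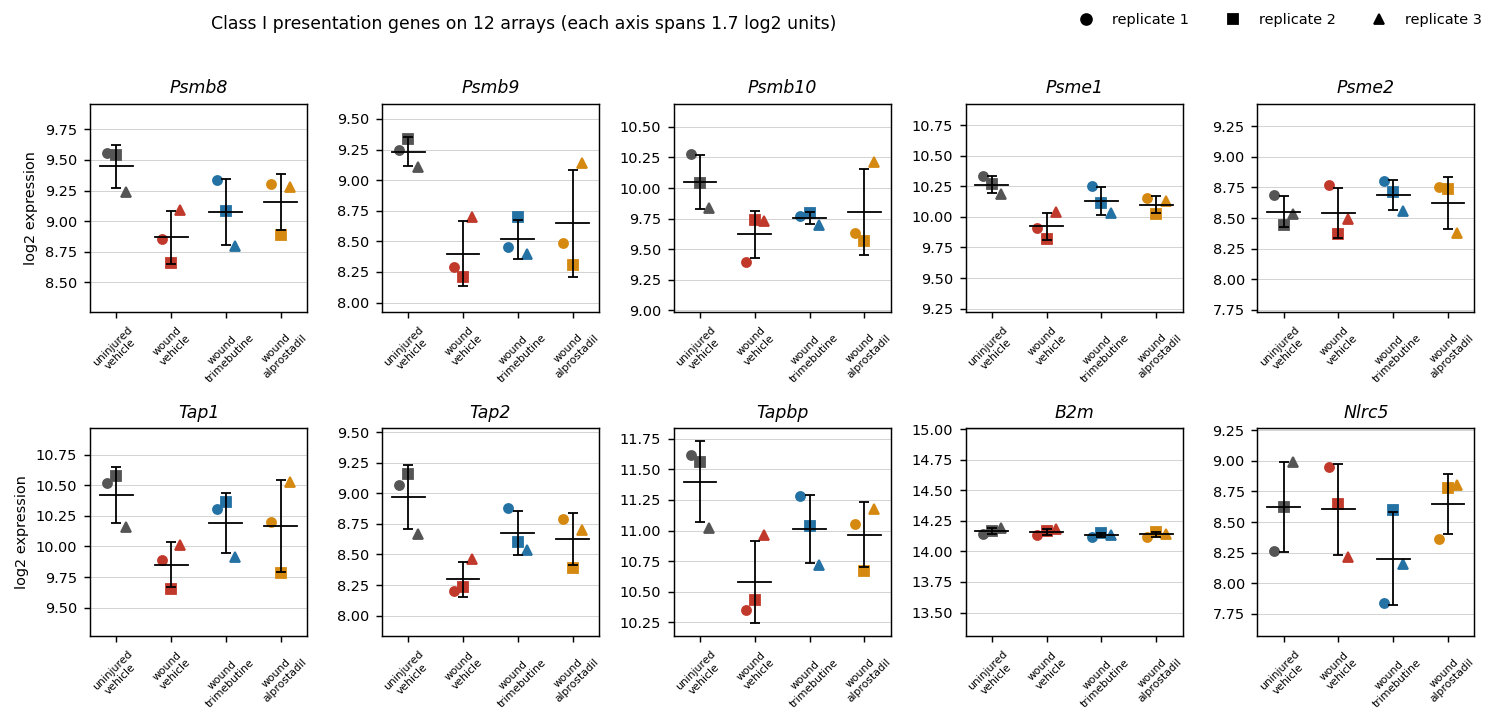
Log2 expression (vertical axis, each panel spanning the same number of log2 units) of the 10 genes on 12 arrays in the 4 groups; symbols are replicates, horizontal lines are group means and bars are 1 SD (n = 3). Psmb8, Psmb9, Psmb10, Psme1, Tap1, Tap2 and Tapbp are highest in uninjured vehicle and lowest in wound vehicle, and B2m is flat at 14.12 to 14.19.

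Psmb9 and Tap1 are neighbours in the class II region of the mouse major histocompatibility complex and are transcribed away from each other, followed by Psmb8 and then Tap2. In RefSeq (GRCm38.p6) the first bases of Psmb9 and Tap1 are parted by 225 bases on chromosome 17, shown because a single stretch of DNA lies in front of both genes. Promoter windows of 300 bases, 250 before and 50 after the gene start, were found for 8 of the 10 genes, not for Tap2 or Nlrc5. Both strands were searched for the letters GAAANNGAAA (the core of an interferon-stimulated response element), TTCNNNGAA (an interferon-gamma activated site), GGGNNTTNCC (a kappa-B site) and CCAAT. Of 32851 windows of all genes, 3.44%, 8.3%, 4.79% and 37.4% held them. The motifs do not overlap each other in the windows printed. The plus strand of the shared interval, chr17:34187331-34187555, has in capitals its only match, a CCAAT box:
Psmb9-Tap1: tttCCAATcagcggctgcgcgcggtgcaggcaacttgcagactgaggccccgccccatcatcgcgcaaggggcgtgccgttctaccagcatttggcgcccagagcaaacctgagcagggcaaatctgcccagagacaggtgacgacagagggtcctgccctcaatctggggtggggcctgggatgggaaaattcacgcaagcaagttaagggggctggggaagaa
The B2m window is shown because it held 3 of the 4 motifs although B2m was flat. Its positions -160 to -41 from the gene start, chr2:122147527-122147646 on the plus strand, has in capitals the response element core, the kappa-B site on the other strand and a CCAAT box on the other strand:
B2m: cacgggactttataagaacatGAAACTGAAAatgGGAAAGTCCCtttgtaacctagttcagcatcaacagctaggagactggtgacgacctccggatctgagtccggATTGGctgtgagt
The Psmb8 window held the only interferon-gamma activated site letters among the 8 genes. Its positions -120 to -21 from the gene start, chr17:34198075-34198174 on the plus strand, has that match in capitals:
Psmb8: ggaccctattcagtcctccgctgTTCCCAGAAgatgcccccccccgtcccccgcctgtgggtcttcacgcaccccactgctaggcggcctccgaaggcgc
Psme1 held the response element core after its start and Tapbp held CCAAT boxes, while the windows of Psmb10 and Psme2 held none of the 4 motifs. A match is a run of letters and not a shown binding site, and none of the 4 motifs was found in all 6 windows of genes that lay lower with injury.

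Psmb9 supplies the caspase-like site's replacement in the immunoproteasome. It was at 9.25, 9.34 and 9.11 in uninjured vehicle (mean 9.23 ± 0.12, SD, n = 3) and at 8.29, 8.21 and 8.70 in wound vehicle (8.40 ± 0.26). It was at 8.45, 8.70 and 8.40 with trimebutine (8.52 ± 0.16) and at 8.49, 8.31 and 9.14 with alprostadil (8.65 ± 0.43). All 3 uninjured arrays lay above all 3 wound vehicle arrays and above all 3 trimebutine arrays, while alprostadil replicate 3 reached the uninjured range. Trimebutine lay apart from and below uninjured vehicle for 2 of the 10 genes, Psmb9 and Psmb10, and for 869 of the 13153 genes tested. The injury difference was -0.83 ± 0.20 (SE), with a 95% interval of -1.29 to -0.38 and a limma adjusted p of 0.187.

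Psmb8 supplies the chymotrypsin-like site's replacement. It was at 9.56, 9.54 and 9.24 in uninjured vehicle (9.44 ± 0.18) and at 8.85, 8.66 and 9.09 in wound vehicle (8.87 ± 0.21). The drug groups lay between, at 9.34, 9.08 and 8.80 with trimebutine (9.07 ± 0.27) and at 9.30, 8.89 and 9.28 with alprostadil (9.16 ± 0.23). Injury gave a difference of -0.58 ± 0.17 (SE; limma adjusted p = 0.227), and both drug groups overlapped both vehicle groups.

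Psmb10, the replacement for the trypsin-like site, was at 10.28, 10.04 and 9.84 in uninjured vehicle (10.06 ± 0.22) and at 9.40, 9.74 and 9.73 in wound vehicle (9.62 ± 0.20). It was at 9.77, 9.80 and 9.70 with trimebutine (9.76 ± 0.05) and at 9.63, 9.57 and 10.21 with alprostadil (9.80 ± 0.35). The lowest uninjured array stood only just above the highest wound vehicle array. The injury difference of -0.43 ± 0.18 (SE) had an adjusted p of 0.352 in limma, the weakest of the 7.

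For the constitutive subunits that these 3 replace, the difference with injury was 0.09 ± 0.13 (SE; 95% interval -0.20 to 0.37) for Psmb5, 0.00 ± 0.09 (-0.20 to 0.19) for Psmb6 and -0.02 ± 0.08 (-0.20 to 0.16) for Psmb7. None of these 3 had an unadjusted p under 0.05, and the difference between immunoproteasome and constitutive subunits was not tested. Of 29 other core and cap subunits tested, 1 was lower at an unadjusted p under 0.05, Psmc5 of the ATPase ring at -0.25 ± 0.10 (SE), and their median difference was -0.08. Pomp, the chaperone of proteasome assembly, differed by -0.21 ± 0.10 (SE).

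The PA28 activator is a ring of Psme1 and Psme2 subunits that opens the proteasome core, and its partners had unlike estimates. Psme1 was at 10.33, 10.27 and 10.19 in uninjured vehicle (10.26 ± 0.07) and at 9.91, 9.82 and 10.04 in wound vehicle (9.93 ± 0.11). It was at 10.25, 10.11 and 10.03 with trimebutine (10.13 ± 0.11) and at 10.15, 10.02 and 10.13 with alprostadil (10.10 ± 0.07). Its injury difference was small but tight, -0.34 ± 0.09 (SE; 95% interval -0.54 to -0.14; limma adjusted p = 0.196).

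Psme2 was at 8.69, 8.44 and 8.53 in uninjured vehicle (8.55 ± 0.13) and at 8.77, 8.37 and 8.49 in wound vehicle (8.54 ± 0.20). It was at 8.80, 8.71 and 8.56 with trimebutine (8.69 ± 0.12) and at 8.75, 8.74 and 8.38 with alprostadil (8.62 ± 0.22). All 4 groups overlapped, and the injury difference was -0.01 ± 0.14 (SE; 95% interval -0.31 to 0.29). A second probe set that names Psme2 carries several symbols and was not used. The difference between the 2 subunits was not tested. Psme3, the subunit of the other, nuclear activator ring, differed by -0.16 ± 0.11 (SE).

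Tap1 and Tap2 form the peptide transporter. Tap1 was at 10.52, 10.58 and 10.16 in uninjured vehicle (10.42 ± 0.22) and at 9.89, 9.65 and 10.01 in wound vehicle (9.85 ± 0.18). It was at 10.31, 10.36 and 9.91 with trimebutine (10.19 ± 0.25) and at 10.20, 9.78 and 10.53 with alprostadil (10.17 ± 0.37). Both drug groups overlapped both vehicle groups. Wound vehicle minus uninjured vehicle was -0.57 ± 0.20 (SE; limma adjusted p = 0.294).

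Tap2 was at 9.07, 9.16 and 8.67 in uninjured vehicle (8.97 ± 0.26) and at 8.20, 8.23 and 8.46 in wound vehicle (8.29 ± 0.15). It was at 8.88, 8.60 and 8.54 with trimebutine (8.67 ± 0.18) and at 8.79, 8.39 and 8.70 with alprostadil (8.63 ± 0.21). Here the 3 trimebutine arrays lay above all 3 wound vehicle arrays, as in 9.21% of all genes tested, and so did those of no other of the 10. The injury difference was -0.67 ± 0.16 (SE; 95% interval -1.02 to -0.32), with the lowest limma adjusted p of the 10, 0.171.

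Tapasin bridges the transporter and the class I heavy chain. Tapbp was at 11.62, 11.56 and 11.02 in uninjured vehicle (11.40 ± 0.33) and at 10.35, 10.43 and 10.96 in wound vehicle (10.58 ± 0.33). It was at 11.28, 11.04 and 10.72 with trimebutine (11.01 ± 0.28) and at 11.05, 10.67 and 11.18 with alprostadil (10.96 ± 0.27). Uninjured replicate 3 and wound vehicle replicate 3 nearly met. The injury difference was -0.82 ± 0.23 (SE; limma adjusted p = 0.205). A dimmer Tapbp probe set, examined after the data had been seen, gave -0.50 ± 0.22 (SE; adjusted p = 0.382).

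B2m is the light chain that every class I heavy chain needs to reach the cell surface. It was at 14.14, 14.17 and 14.19 in uninjured vehicle, at 14.13, 14.17 and 14.18 in wound vehicle, at 14.12, 14.15 and 14.13 with trimebutine and at 14.12, 14.16 and 14.14 with alprostadil. All 12 values lay within 0.07 log2 units, and the injury difference was -0.01 ± 0.06 (SE; 95% interval -0.14 to 0.13). At most 1 probe set was brighter than that of B2m on any array, where the highest value of all was 14.22. Whether the array still resolves differences in RNA at this brightness was not tested.

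Nlrc5 is the transactivator that assembles on class I promoters. It was at 8.26, 8.62 and 8.99 in uninjured vehicle (8.62 ± 0.36) and at 8.95, 8.65 and 8.21 in wound vehicle (8.60 ± 0.38). It was at 7.84, 8.60 and 8.16 with trimebutine (8.20 ± 0.38) and at 8.36, 8.78 and 8.80 with alprostadil (8.65 ± 0.25). All 4 groups overlapped. The injury difference was -0.02 ± 0.26 (SE), and its 95% interval of -0.59 to 0.55 holds differences as large as those of Psmb8 and Tap1.

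**Figure D2:**
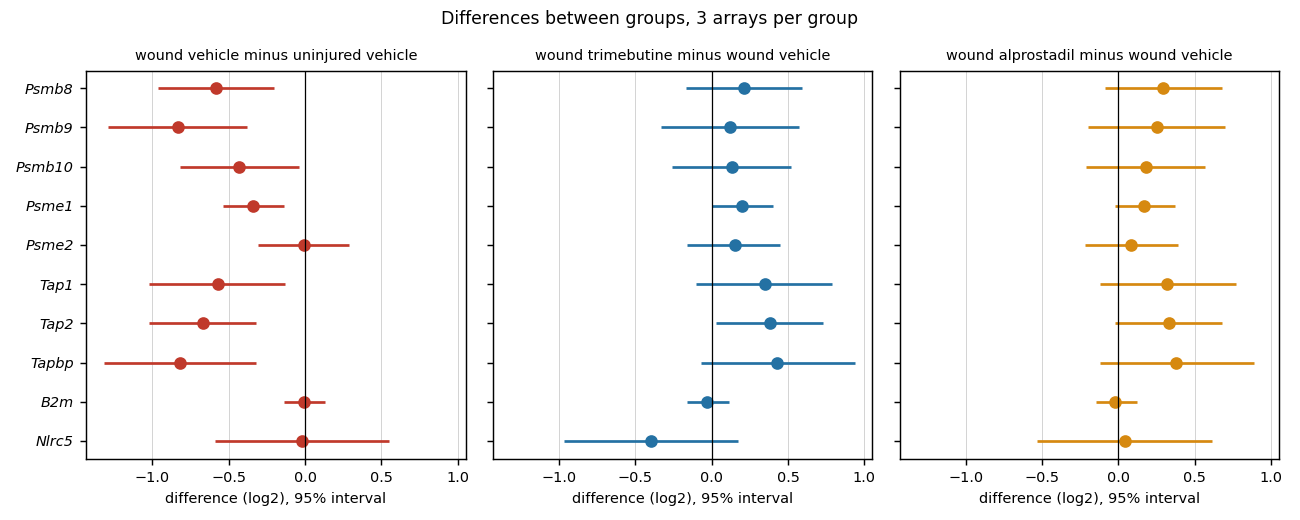
Differences in log2 expression (horizontal axis) for the 10 genes in 3 comparisons; points are limma estimates and lines 95% intervals, 3 arrays per group. In the injury comparison 7 intervals lie wholly below 0, while with trimebutine those of Tap2 (0.03 to 0.73) and, barely, Psme1 lie above 0 and with alprostadil all 10 cross 0.

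The 7 genes also varied together from array to array. Over 12 arrays their 21 pairwise Pearson correlations ran from 0.67 to 0.97 with a median of 0.85, and after each group's mean had been removed they ran from 0.38 to 0.97 with a median of 0.75. Psmb8 followed Psme1 (r = 0.95 over 12 arrays, 0.97 within groups) and Tap2 followed Tapbp (0.97 and 0.92). Against these 7, the other 3 genes had correlations of -0.44 to 0.30 with a median of -0.13 over 12 arrays. Within groups theirs ran from -0.74 to 0.26 with a median of -0.29, the lowest being that of Nlrc5 with Tap2. The 7 were grouped after their values had been seen, and all genes on an array share its culture and hybridisation, so these are descriptions. Uninjured replicate 3, trimebutine replicate 3 and alprostadil replicate 2 were each the lowest of their group in all 7 genes, and wound vehicle replicate 3 was the highest of its group in 6.

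**Figure D3:**
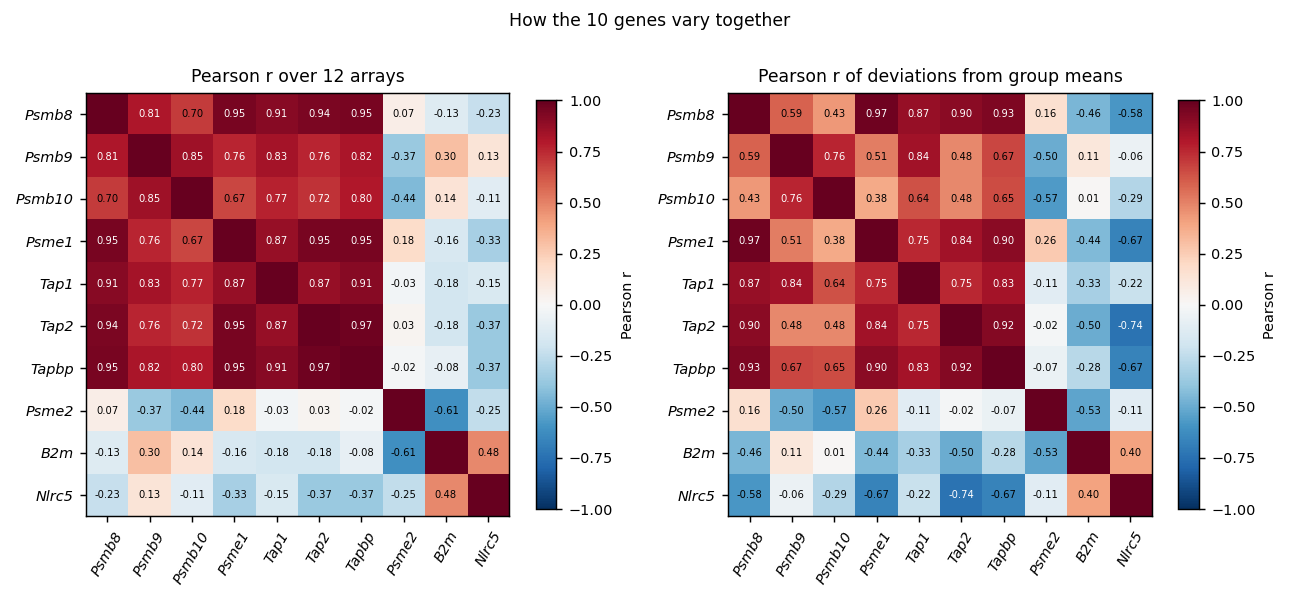
Pearson correlations between the 10 genes (rows and columns; colour and printed values are r) over 12 arrays on the left and of deviations from group means on the right. The 7 genes from Psmb8 to Tapbp form a block of 0.67 to 0.97 on the left and 0.38 to 0.97 on the right, which Psme2, B2m and Nlrc5 do not join.

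The tested genes outside the 10 whose pattern was most like the mean of the 10, by Pearson correlation over 12 arrays, were Vstm2b, Ly6c2, Parp12, Ccn1, Ctla2a, Il16, Smoc2, Ddah1, Ccl7 and Lmcd1, at 0.94 to 0.96. Within groups the values ran from 0.84 for Lmcd1 to 0.97 for Parp12, a mono-ADP-ribosyltransferase known to be interferon-induced. Parp12 was at 11.53, 11.61 and 11.28 in uninjured vehicle and at 11.01, 10.92 and 11.15 in wound vehicle. The matricellular gene Smoc2 had a larger difference than any of the 10 members, -3.04 ± 0.61 (SE; limma adjusted p = 0.118), and the chemokine gene Ccl7 by -0.95 ± 0.24 (SE; adjusted p = 0.19). None of these 10 genes passed the adjusted threshold in the injury comparison. Because these genes were picked by likeness over the same 12 arrays, that choice favours lower values in wound vehicle and high correlations within groups.

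Among class I heavy chains and related molecules, 4 of 10 tested genes were lower after injury at an unadjusted p under 0.05 and 9 of 10 lay below 0, with a median of -0.22. The classical heavy chain H2-K1 was at 13.09, 13.17 and 13.11 in uninjured vehicle and at 12.90, 12.79 and 12.90 in wound vehicle, a difference of -0.26 ± 0.09 (SE; limma adjusted p = 0.302). The class Ib genes H2-T23, which encodes Qa-1, and H2-Q4 differed by -0.68 ± 0.24 and -0.77 ± 0.23 (SE; adjusted p = 0.302 and 0.218). Cd1d1, which presents lipids, differed by -0.60 ± 0.15 (SE; adjusted p = 0.196). Heavy chains are near-identical in parts, so their probe sets may share signal, and H2-D1 was not analysed here. Of 12 partners in trimming and loading, Erap1, the aminopeptidase that trims peptides, and Tapbpl, the tapasin relative that edits them, were lower at an unadjusted p under 0.05. Their differences were -0.51 ± 0.15 and -0.62 ± 0.21 (SE; adjusted p = 0.219 and 0.277). The median of these 12 was 0.10, and the general chaperone Calr differed by 0.12 ± 0.13 (SE).

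Genes known to be induced by interferon lay lower too. Of 25 interferon-induced effector genes, 16 were lower at an unadjusted p under 0.05, 24 lay below 0 and 17 had groups apart, with a median of -0.52. Cxcl10, a chemokine gene, was at 8.65, 8.48 and 7.88 in uninjured vehicle and at 6.72, 6.36 and 7.37 in wound vehicle, a difference of -1.52 ± 0.39 (SE; limma adjusted p = 0.195). Bst2, the gene of tetherin, differed by -0.67 ± 0.18 (SE; adjusted p = 0.204). Of 16 genes of interferon signalling, 5 were lower and 1 higher at an unadjusted p under 0.05. Among these 16, 13 lay below 0, and 6 had groups apart and lower and 1 apart and higher. Irf7, a factor that is itself interferon-induced, differed by -1.14 ± 0.36 (SE; adjusted p = 0.247), the receptor chain Ifngr1 by -0.40 ± 0.14 (SE), and Irf1, which acts on class I promoters, by -0.22 ± 0.16 (SE). The ligand genes Ifng and Ifnb1 lay at 6.32 to 6.66 and 3.83 to 4.20 over the 12 arrays. No gene of these lists passed the adjusted threshold in this comparison.

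Factors that bind class I promoters and class II genes differed less evenly. Rfx5, which binds the X box with Nlrc5, differed by -0.34 ± 0.10 (SE; limma adjusted p = 0.24), and Creb1 by 0.23 ± 0.08 (SE; adjusted p = 0.311). Of 12 NF-kB and enhanceosome genes, 2 were lower and 1 higher at an unadjusted p under 0.05, and their median was -0.19. Among these 12, 9 lay below 0, and 5 had groups apart and lower and 2 apart and higher. Of the 13153 genes tested, 1317 lay apart and lower and 1053 apart and higher. The class II transactivator Ciita differed by 0.04 ± 0.09 (SE), and of 4 class II presentation genes tested, H2-DMb1 was lower at an unadjusted p under 0.05 (-0.87 ± 0.38, SE).

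**Figure D4:**
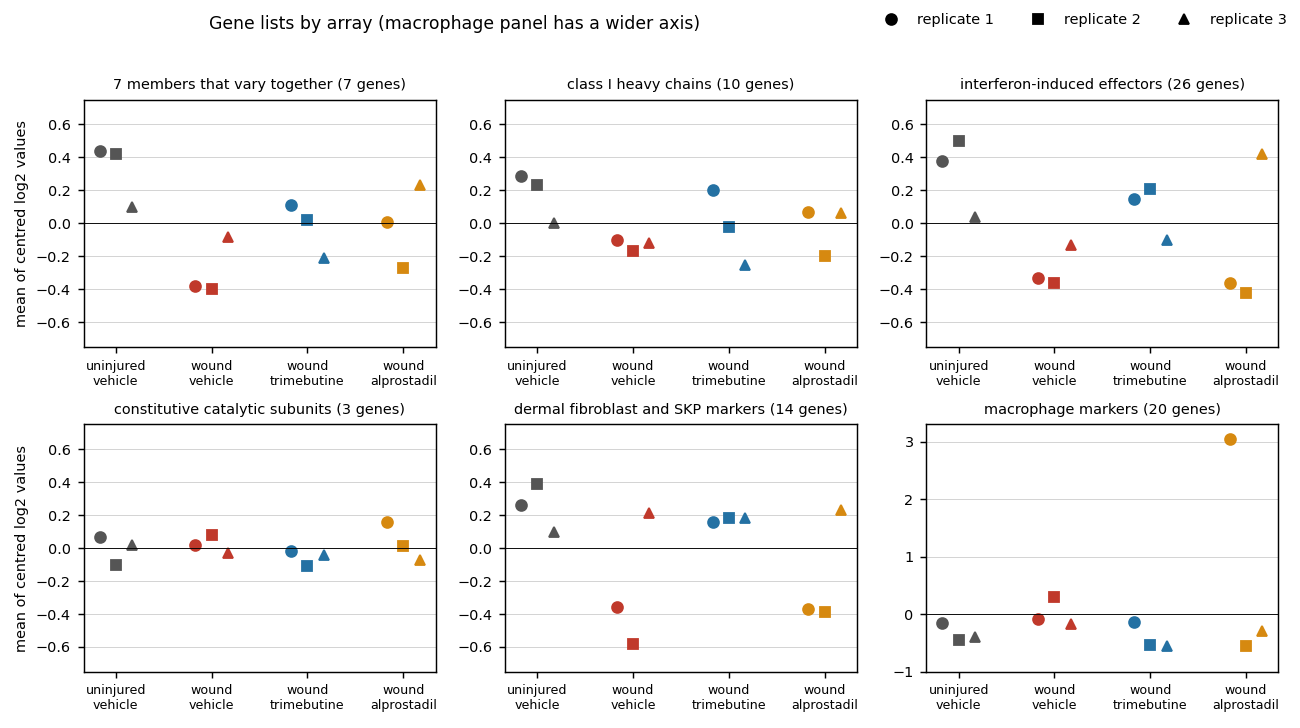
Mean of centred log2 values (each gene minus its mean over 12 arrays; vertical axis) for 6 gene lists on each array; symbols are replicates. The 7 genes and the heavy chains are highest in uninjured replicates 1 and 2, the interferon-induced effectors in uninjured replicate 2 and alprostadil replicate 3, the constitutive subunits stay between -0.11 and 0.16, and macrophage markers reach 3.04 on alprostadil replicate 1.

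Of 13 dermal fibroblast markers tested, 4 were lower in wound vehicle than in uninjured vehicle at an unadjusted p under 0.05, 3 had groups apart and lower and none was called in limma, with a median difference of -0.46. Their mean of centred log2 values was 0.26, 0.39 and 0.10 in uninjured vehicle, -0.36, -0.58 and 0.21 in wound vehicle, 0.16, 0.18 and 0.18 with trimebutine and -0.37, -0.39 and 0.23 with alprostadil. The same mean for the 7 genes was 0.44, 0.42 and 0.10, then -0.38, -0.40 and -0.08, then 0.11, 0.02 and -0.21, then 0.01, -0.27 and 0.23. In both lists uninjured replicate 3, wound vehicle replicate 2 and alprostadil replicate 2 were the lowest of their groups. Wound vehicle replicate 3 and alprostadil replicate 3 were the highest of theirs in both. The lists parted on some arrays: the fibroblast mean was level with trimebutine, where replicate 3 was low in the 7 genes. On alprostadil replicates 1 and 2 the fibroblast mean was -0.37 and -0.39, and that of the 7 genes 0.01 and -0.27. In wound vehicle replicate 3 the fibroblast mean exceeded that of uninjured replicate 3. All 14 fibroblast markers were matched and 13 exceeded the median of at least 3 arrays. Their part in the result was not tested. Macrophage markers ran from -0.45 to -0.16 in uninjured vehicle and from -0.17 to 0.30 in wound vehicle. Of 12 tested, 10 lay above 0 for wound vehicle minus uninjured vehicle, with a median difference of 0.27. Their groups lay apart with wound vehicle higher for 3 and lower for 1, against 1053 and 1317 of the 13153 genes tested. None had an unadjusted p under 0.05 in limma, in a fit whose spread includes alprostadil replicate 1. The part of macrophage markers in the result was not tested. Of 4 endothelial markers tested, 2 were higher in wound vehicle at an unadjusted p under 0.05 in limma, against 625 of all genes. The differences of these 4 ran from -0.23 to 2.01 with a median of 0.38, and their part was not tested either.

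Trimebutine was compared with vehicle in SKPs from wounded skin. None of the 10 genes passed the adjusted threshold in limma, and neither did any of all genes (0%). Psme1 and Tap2 were higher at an unadjusted p under 0.05, against 839 of all genes (6.38%). Their differences were 0.20 ± 0.09 and 0.38 ± 0.16 (SE; limma adjusted p = 0.53 and 0.528). In 8 of 10 genes the difference lay above 0, against 50% of all genes, and the median was 0.17. Groups lay apart, with trimebutine higher, for 1 of 10 genes (Tap2) and for 9.21% of all genes. The immunoproteasome genes had differences of 0.21 ± 0.17 for Psmb8, 0.12 ± 0.20 for Psmb9 and 0.13 ± 0.18 for Psmb10 (SE). Tap1 and Tapbp had larger but looser differences of 0.35 ± 0.20 and 0.43 ± 0.23 (SE). Nlrc5 went the other way, at -0.40 ± 0.26 (SE; 95% interval -0.97 to 0.17). Of the 25 interferon-induced effectors, 24 lay above 0, 5 were higher at an unadjusted p under 0.05 and none was called. This comparison shares the wound vehicle arrays with the injury comparison, so their opposite signs are not independent.

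Alprostadil was compared with the same vehicle arrays. None of the 10 genes was called in limma, nor was any of all genes (0%), and none of the 10 had an unadjusted p under 0.05, which 362 of all genes had. In 9 of 10 genes the difference lay above 0, against 59.4% of all genes, and the median was 0.21. The differences ran up to 0.38 ± 0.23 for Tapbp, 0.33 ± 0.16 for Tap2 and 0.32 ± 0.20 for Tap1 (SE; limma adjusted p = 0.998 for each). Values for the immunoproteasome were 0.29 ± 0.17 for Psmb8, 0.25 ± 0.20 for Psmb9 and 0.18 ± 0.18 for Psmb10 (SE). Without alprostadil replicate 3 that of Psmb9 was 0.00 and that of Psmb10 -0.02, and without alprostadil replicate 2 the median was 0.36. On alprostadil replicate 1, the array that stood apart in macrophage genes, the 10 genes were not raised together. Other arrays were not free of macrophage signal: Cd68 and Spi1 exceeded the array median on all 12. Psmb8 was at 9.30 against a mean of 9.09 on the other 2 alprostadil arrays, Psmb9 at 8.49 against 8.73, Tap1 at 10.20 against 10.16 and Nlrc5 at 8.36 against 8.79.

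Trimebutine and alprostadil were set against each other at doses that are not given. None of the 10 genes passed the adjusted threshold in limma, and neither did any of all genes (0%), and none had an unadjusted p under 0.05, which 581 of all genes had. The differences, trimebutine minus alprostadil, ran from -0.45 ± 0.26 for Nlrc5 (SE; 95% interval -1.01 to 0.12) to 0.07 ± 0.14 for Psme2. The interval for Psmb9 was -0.58 to 0.32 and that for Tapbp -0.45 to 0.55.

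Both drug groups were also compared with uninjured vehicle. With trimebutine, none of the 10 genes and 26 of all genes were called (0.198%). Psmb9 was the 1 gene of the 10 lower at an unadjusted p under 0.05, against 3.6% of all genes, at -0.72 ± 0.20 (SE; limma adjusted p = 0.345). With alprostadil none of the 10 and none of all genes were called (0%), and Psmb9 was again the 1 lower at an unadjusted p under 0.05, against 3.97% of all genes, at -0.59 ± 0.20 (SE; adjusted p = 0.636). Groups lay apart, with the drug group lower, for Psmb9 and Psmb10 with trimebutine, against 869 of all genes. With alprostadil they lay apart for Psme1 alone of the 10, against 574 of all genes. These comparisons share the uninjured arrays with the injury comparison, and whether Psmb9 differed more than the other genes was not tested.

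For each of the 7 genes the order of group means was uninjured vehicle first and wound vehicle last, with the drug groups between, and every pair of neighbours in that order overlapped. A test of any difference over the 4 groups called none of the 10 genes and 2 of all genes (0.0152%). At an unadjusted p under 0.05 it gave 5 of the 10 genes, against 1038 of the 13153 genes tested. These were Psmb8, Psmb9, Psme1, Tap2 and Tapbp, at 0.0438, 0.00939, 0.0233, 0.0118 and 0.0315 in limma, with a lowest adjusted p of 0.559. Whether the injury result was called turned on how arrays were weighted. When limma estimated a weight for each array, from 0.3 for alprostadil replicate 1 to 5.99 for uninjured replicate 2, 7 of 10 members passed the adjusted threshold, as did 4997 of all genes, and with trimebutine against wound vehicle 3 members did (Psme1, Tap2 and Tapbp) and 4034 of all genes. In the injury comparison Psmb9 was then at -1.02 (adjusted p = 0.00128), Tap2 at -0.89 (0.000829) and Tapbp at -1.11 (0.00122). These weights were estimated from the same 12 arrays, and the low weights of uninjured replicate 3 and wound vehicle replicate 3, 0.49 and 0.32, fell on arrays where the 7 genes came closest together.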

How the data were processed

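The samples were 12 cultures in 4 groups of 3, grouped by the treatment group in the labels. The deposited values are log2 expression levels of probe sets, which the authors obtained with oligo and RMA, per the submitters' processing notes, in versions not given in the sources used here. Precision is limited by the number of arrays. Of 41345 probe sets, 23521 carry 1 symbol in the platform annotation and the brightest stood for its symbol. Genes that exceeded the median of at least 3 of 12 arrays were tested with limma 3.58.1 in R 4.3.3. There was 1 fit over all 12 arrays without covariates, with 8 residual degrees of freedom and Benjamini-Hochberg adjustment at 0.05. The fit was also run on simulated data with independent noise per gene and differences larger than those of the 10 genes. That run cannot tell how smaller differences, or genes that vary together, fare. Group arrays are apart when they do not overlap. The members, the 8 pathway lists, the 6 marker lists and the tests were chosen with earlier results of these data known; 192 of 214 listed genes were matched. Named genes are the members, fixed partners, the 2 genes of lowest injury p in each pathway list and the 10 genes most like the members. Promoters are RefSeq windows. Alternatives covered filter, normalization, probe set choice, variance model, array weights, pairing, samples fitted, threshold and arrays left out. Figures were drawn with matplotlib 3.10.9.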

Additional observations from a re-analysis of the deposited data

How the results depend on the processing

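Except with array weights, the 10 genes gave no call in any comparison under any alternative run. At an adjusted p of 0.05 these were no filter, a stricter filter, median centring, cyclic loess, mean probe sets and a trended robust variance. The replicate block, only the groups compared and arrays left out were also run at 0.05. In 1 further alternative the threshold itself was 0.10. With array weights the members called numbered 7 for injury, 3 for trimebutine against wound vehicle, 5 for trimebutine and 2 for alprostadil against uninjured vehicle and 7 over the 4 groups; all genes called numbered 4997, 4034, 2171, 562 and 5302, and the members' median for alprostadil against uninjured vehicle was -0.40. The counts of all genes, 6 for injury, 26 for trimebutine against uninjured vehicle and 2 over the groups, became 2, 10 and 0 with the replicate block, 1, 17 and 1 with median centring, and 0, 0 and 0 without the 3 arrays of lowest median. With the stricter filter the counts for trimebutine against uninjured vehicle and over the groups became 12 and 0. With only the groups compared those for injury and trimebutine against uninjured vehicle became 0 and 15, and at 0.10 that for injury became 21. Leaving out 1 array gave 0 to 30 for injury (30 without uninjured vehicle replicate 3), 0 to 30 for trimebutine and 0 to 11 for alprostadil against uninjured vehicle, 0 to 11 and 0 to 1 against wound vehicle, 0 to 1 between the drugs and 0 to 6 over the groups. Members' medians then ran from -0.61 to -0.42 for injury, 0.13 to 0.26 for trimebutine and 0.15 to 0.36 for alprostadil against wound vehicle, and -0.13 to 0.07 between the drugs. The cause was not tested. The labels do not say whether replicate numbers pair the samples, and the correlations did not settle it. Of 18 same-numbered pairs 11 correlated above 0.1, and 5 of 12 arrays correlated best with their own number. Same-numbered pairs reached 0.62, and pairs of unlike number reached 0.58. Same-numbered trimebutine and alprostadil arrays correlated at 0.57, 0.22 and 0.42. For uninjured and wound vehicle arrays the values were -0.36, -0.38 and -0.64. The block changed no member's call. Signs of Psme2, B2m and Nlrc5 in the injury comparison turned when single arrays were left out.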
